A study of Mus musculus with 12 samples.

Results

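The 106 genes described here belong to transcription factor families known for roles in development and in responses to hormones and growth factors. They are the nuclear receptor, SOX, GATA, forkhead (FOX), Krüppel-like (KLF), HOX, C/EBP, STAT, ETS, AP-1 and ATF, EGR, GLI, ID, TCF, PAX, TEAD, RUNX and LHX families. Members were chosen by gene symbol, whatever their signal, from 8127 genes to which a probe could be assigned, and Cebpb was left out. They were measured by 134 probes, and the probe with the highest mean stood for each of the 23 genes that had more than 1. Of the 106, 4 share only the spelling of a family and were grouped apart from it: Atf7ip, a partner protein of ATF7-type factors, the splicing regulator Esrp2, Cebpzos and the non-coding RNA gene Sox2ot. The TCF group was formed by symbol alone and includes Tcf4, a bHLH factor.

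Activin A is a ligand of the transforming growth factor beta family. Its receptors are serine/threonine kinases that phosphorylate Smad proteins, which enter the nucleus with Smad4 and bind DNA weakly by themselves, so that partner transcription factors decide where they act. Granulosa cells, the somatic cells that surround the egg, depend on forkhead, GATA and nuclear receptor proteins for their identity and for their answer to pituitary hormones. Krüppel-like factors are zinc-finger proteins that bind GC-rich and CACCC sequences, and several of them are induced quickly by growth factors and hormones. Follistatin is a secreted protein that binds activin and keeps it from its receptors.

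Cultures of primary mouse granulosa cells received activin A, activin A with follistatin, or PBS as vehicle, and RNA was taken after 24 h. Each culture came from pooled ovaries (14 to 20) of immature mice aged 21 to 23 days; the strain is not given in the sources used here. The work was done in 4 experiments, each with 1 array of every treatment, which gave 12 Illumina bead arrays and 4 per group. Signals are on a log2-like scale, and every difference below is a difference of group means on that scale with its standard error (SE) from limma. A fold change reads the scale as plain log2, and because background was not subtracted, it understates the change of dim genes. A gene was called when its Benjamini-Hochberg adjusted p over all 46084 probes was under 0.05.

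Of the granulosa markers, 2 of 12 had a named probe, and both were above background: Amhr2, the receptor of anti-Müllerian hormone, with a mean of 12.7, and the transcription factor Wt1 with 9.38. Wt1 averaged 9.01 with activin, 9.74 with activin plus follistatin and 9.39 with PBS, in the same order in each of the 4 experiments. It was called with the experiment as a block only, lower with activin than with PBS (-0.38 ± 0.22, limma adjusted p = 0.578 without and 0.0196 with it) and than with activin plus follistatin (-0.73 ± 0.22, adjusted p = 0.0792 without and 0.000209 with it). Amhr2 averaged 12.72 with activin, 12.78 with activin plus follistatin and 12.58 with PBS and was not called. Of the theca and stroma markers, 7 of 12 were measured and 3 were above background. The mean level of all 7 was 7.31 to 7.39 in activin cultures, 7.72 to 8.06 with activin plus follistatin and 7.52 to 7.89 with PBS. The matrix proteoglycan Dcn averaged 7.80 with activin, 10.6 with activin plus follistatin and 9.57 with PBS, while Insl3, Ptch1, Nr2f2 and Col1a2 were at background in every group mean. Dcn and the collagen gene Col3a1 were called lower with activin than with activin plus follistatin (-2.81 ± 0.54 with limma adjusted p = 0.00662 and -0.95 ± 0.12 with adjusted p = 0.000439). Against PBS, Col3a1 was called lower with activin (-0.73 ± 0.12, adjusted p = 0.00654), and Dcn with the experiment as a block only (-1.77 ± 0.54, adjusted p = 0.139 without and 0.00667 with it). The third marker above background, the collagen gene Col1a1, averaged 7.46 with activin, 7.39 with activin plus follistatin and 7.48 with PBS and was not called by either fit. Among 3 measured endothelial markers, Robo4 averaged 7.11 with activin, 7.92 with activin plus follistatin and 7.40 with PBS, and Pecam1 and Emcn stayed close to background. Robo4 was called lower with activin than with activin plus follistatin (-0.80 ± 0.10, adjusted p = 0.000293), and its differences from PBS were called with the block only (adjusted p = 0.0409 for activin and 0.00775 for activin plus follistatin, against 0.205 and 0.0722 without it). Measured were 5 of 8 macrophage, 2 of 8 oocyte, 2 of 6 smooth muscle, 5 of 8 surface epithelium and 2 of 4 erythroid markers. Of these, 0 were called by limma in any comparison with or without the block, and 0 had an unadjusted p under 0.05. Those tests compare treatments and not experiments. Above background were 1 macrophage, 1 oocyte, 1 smooth muscle, 2 surface epithelium and 1 erythroid marker. Of all named genes, 5.00%, 0.258% and 11.9% were called in the 3 comparisons without the block. With so few markers, a count of 0 does not show that these cells were equally common in all treatments. Above background, the share of variance between experiments was 92.6% for the oocyte gene Nlrp5 and 80.1% for the macrophage gene Lyz2. It was 80.2% for Krt18, 76.4% for Krt8, 72.7% for Acta2 and 17.0% for Hbb-b1. Nlrp5 averaged 8.19 in experiment 1 and 7.06, 7.07 and 7.10 in experiments 2 to 4. Acta2 averaged 7.55, 8.08, 7.68 and 8.42 in experiments 1 to 4. The part that other cells play in the differences below was not tested. In RNA of whole cultures, fewer cells of a type and less RNA per cell cannot be told apart.

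Promoter sequences of 5 members that moved in the treatments are shown to give the DNA near their starts, in which Smad and KLF motifs were looked for. Each is the 250 bases before an annotated start, written 5′ to 3′ on the gene's strand, from RefSeq's annotation of mouse assembly GRCm38.p6. Capitals mark CAGAC or its complement GTCTG, the short sequence that Smad proteins contact.

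Rorb (chr19:19111197-19111446, minus strand): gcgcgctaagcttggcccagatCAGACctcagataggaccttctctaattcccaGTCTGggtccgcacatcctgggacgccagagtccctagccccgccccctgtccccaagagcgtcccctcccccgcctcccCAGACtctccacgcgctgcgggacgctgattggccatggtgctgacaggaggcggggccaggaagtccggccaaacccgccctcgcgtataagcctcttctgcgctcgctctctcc

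Sox4 (chr13:28953700-28953949, minus strand): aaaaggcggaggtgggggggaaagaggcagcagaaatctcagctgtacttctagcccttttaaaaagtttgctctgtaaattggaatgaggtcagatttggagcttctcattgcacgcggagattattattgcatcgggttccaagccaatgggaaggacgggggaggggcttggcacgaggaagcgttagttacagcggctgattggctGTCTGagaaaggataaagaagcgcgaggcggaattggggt

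Klf7 (chr1:64121390-64121639, minus strand): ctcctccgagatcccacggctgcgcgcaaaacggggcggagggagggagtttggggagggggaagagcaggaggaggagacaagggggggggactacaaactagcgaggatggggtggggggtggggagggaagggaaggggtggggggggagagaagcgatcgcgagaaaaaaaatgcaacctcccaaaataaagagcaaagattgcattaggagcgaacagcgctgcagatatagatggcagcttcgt

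Gata3 (chr2:9878601-9878850, minus strand): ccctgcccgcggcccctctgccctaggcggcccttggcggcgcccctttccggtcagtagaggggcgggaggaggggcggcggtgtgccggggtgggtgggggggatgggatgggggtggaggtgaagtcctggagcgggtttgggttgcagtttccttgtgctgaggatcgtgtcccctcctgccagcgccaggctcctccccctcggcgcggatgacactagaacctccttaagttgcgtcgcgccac

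Cebpa (chr7:35119043-35119292, plus strand): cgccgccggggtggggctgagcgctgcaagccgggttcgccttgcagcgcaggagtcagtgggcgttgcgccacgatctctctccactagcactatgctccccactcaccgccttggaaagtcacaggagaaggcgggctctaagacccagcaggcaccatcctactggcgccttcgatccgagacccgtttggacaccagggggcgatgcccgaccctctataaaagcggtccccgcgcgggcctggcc

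Rorb held 3 matches at this start and 1 at its other annotated start, and Sox4 held 1. The promoters of Klf7, Gata3 and Cebpa held 0 matches in this window. Of the 13 genes called between activin and activin plus follistatin, 10 had a promoter entry, and CAGAC on either strand was found in 3 of them (Rorb, Sox4 and Lhx9), against 42.2% of all 32851 promoters of the same length. GGCGC or its complement GCGCC, a GC-rich Smad motif, was found in 6 of the 10 and in 32.0% of all promoters. Those 6 promoters had a GC content of 53.6% to 78.4%, and the median over all promoters was 52.4%, so the shares compare sequences of unlike GC content. CACCC or its complement GGGTG, the core of KLF sites, was found in 7 of the 10 and in 52.0% of all promoters. The promoters of the 7 that held it had a GC content of 39.2% to 71.2%. A gene counted if any of its starts held the motif, while the share of all promoters counts each start. Rorb, with 2 starts, had CACCC only at the start not printed here. Matches of different motifs can share end bases. The letters are a description of the sequence and do not show binding.

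Of the 106 members, 51 had a mean signal above 7.31, the highest mean of a control spot, which served as background, and 55 did not. That is 48.1% of the members, beside 50.1% of all named genes. The AP-1 protein gene Fosl2 was highest at 12.9, followed by Tcf4, a bHLH partner of tissue-specific factors, at 12.1, and Sox4 at 11.5. Klf6 (11.3), the HLH inhibitor Id3 (11.1) and the retinoid X receptor Rxrb (10.8) came next. Signals of different probes also depend on the probe, so this order describes the arrays and not mRNA copies. Of 20 nuclear receptors, 10 were above background, and of 10 KLF genes, 7. Of 16 HOX genes, 4 were above background, the brightest being Hoxc8 at 7.47. None of 6 LHX genes, 3 PAX genes or the single TEAD gene was above it. The plot of signal by family shows the same split.

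**Figure D1:**
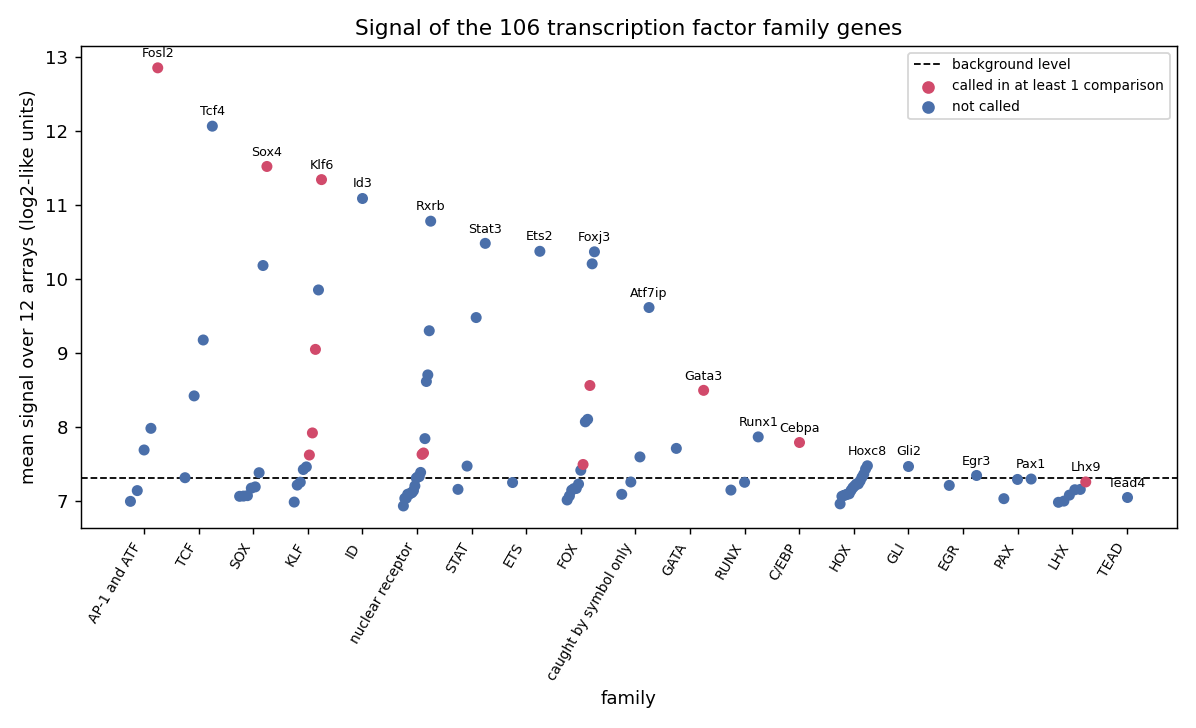
Mean signal over 12 arrays (y axis, log2-like units) of each of the 106 members, grouped by family along the x axis, with the brightest member of each family named. Red points are the 13 members called in at least 1 comparison, blue points the others, and the dashed line is the background level of 7.31. Fosl2 stands highest at 12.9, and the HOX, PAX, LHX and TEAD points lie close to the line or under it.

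Activin differed from PBS in 5 of 106 members (4.72%), 1 higher and 4 lower. Among all named genes the same rule called 5.00%, with 2.85% higher and 2.14% lower, so the share of members called was near that of genes in general. With the experiment as a block, 15 members were called, 3 higher and 12 lower, where 10.6% of named genes were. Activin plus follistatin differed from PBS in 1 member, the nuclear receptor Rorb (0.943%), against 0.258% of named genes. With the block these were 6 members, 5 of them higher, and 2.17% of named genes. Activin differed from activin plus follistatin in 13 members (12.3%), 3 higher and 10 lower, where 11.9% of named genes were called, 5.50% higher and 6.42% lower. With the block 20 members were called, 5 higher and 15 lower, against 18.9% of named genes. Over all 106 members the median difference was -0.01 for activin against PBS, 0.01 for activin plus follistatin against PBS and -0.01 for activin against activin plus follistatin, and over all named genes 0.00, 0.01 and 0.00. In all, 85 members were called in no comparison by either fit. The same count over all named genes was not made, so the 85 cannot be read as a trait of these families.

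In the fit without the block, the count of 5 against PBS leaned on single arrays. All results with arrays or experiments left out, here and below, are from that fit. The fit with the block was not run with arrays left out. Every member call made without the block was also made with it. The count of 5 was 2 without the activin array of experiment 3 or the PBS array of experiment 1. It was 3 without the activin array of experiment 4 or the PBS array of experiment 3 or 4. Without all arrays of experiment 3 it was 2, and without those of experiment 4 it was 3. The count for activin plus follistatin against PBS was 2 without the activin array of experiment 1 or 4, and 0 without experiment 2.

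Activin cultures had less Klf7 and Klf6 mRNA than PBS cultures, and 4 of the 10 KLF genes (Klf7, Klf6, Klf2 and Klf5) were lower with activin than with activin plus follistatin, a share of 40.0% beside 11.9% of all named genes and 22.8% of those above background. Of the 10 KLF genes, 7 were above background. No KLF gene was called higher with activin in either comparison, by either fit. Klf7, a factor studied mainly in neurons and fat cells, read 8.09, 8.50, 8.20 and 8.60 in the activin arrays of experiments 1 to 4. It read 9.57, 9.69, 9.79 and 9.62 with activin plus follistatin, and 9.03, 9.11, 9.16 and 9.23 with PBS. All activin arrays lay under all PBS arrays, and these in turn lay under all arrays with follistatin. Klf7 was 1.72-fold lower with activin than with PBS (-0.78 ± 0.10, limma adjusted p = 0.0012). Against activin plus follistatin it was 2.50-fold lower (-1.32 ± 0.10, adjusted p = 1.02e-05). Between activin plus follistatin and PBS the difference of 0.54 ± 0.10 did not pass (adjusted p = 0.072), and with the experiment as a block it did (adjusted p = 0.0139).

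Klf6, a widely expressed factor that activates genes of growth arrest and of the transforming growth factor beta system, was the brightest of the family. It read 11.19, 10.84, 10.79 and 10.36 with activin, 11.88, 11.89, 11.46 and 11.77 with activin plus follistatin, and 11.62, 11.43, 11.35 and 11.57 with PBS. The activin arrays did not overlap those of either other group, whereas activin plus follistatin and PBS overlapped. With activin Klf6 was 1.62-fold lower than with PBS (-0.70 ± 0.15, adjusted p = 0.0299) and 1.95-fold lower than with activin plus follistatin (-0.96 ± 0.15, adjusted p = 0.00184). The first of these calls was lost without the activin array of experiment 2 or 3 or any 1 of the PBS arrays (adjusted p up to 0.0887), and without experiment 2, 3 or 4 (up to 0.159). It was also lost when only the 2 groups compared were fitted.

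Klf2, known for keeping endothelial cells and lymphocytes quiescent, read 7.24, 7.43, 7.30 and 7.57 with activin. With activin plus follistatin it read 8.48, 8.36, 8.76 and 8.00, and with PBS 7.98, 7.81, 8.21 and 7.89. Activin arrays were near background and under all others. The difference from activin plus follistatin was -1.01 ± 0.14 (adjusted p = 0.000824), a 2.02-fold lower signal. Against PBS it was -0.58 ± 0.14 (adjusted p = 0.0517), which passed with the block (0.0289). The endothelial marker Robo4 moved alongside, with -0.80 ± 0.10 between activin and activin plus follistatin, while Pecam1 and Emcn stayed near background; their part in the Klf2 difference was not tested.

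Klf5, a factor of proliferating epithelia, read 7.28, 7.27, 7.21 and 7.12 with activin, 7.59, 8.34, 7.64 and 8.21 with activin plus follistatin, and 7.48, 7.92, 7.51 and 7.88 with PBS. Activin arrays were at background in all experiments, and the other treatments were higher in experiments 2 and 4 than in 1 and 3. Its call between activin and activin plus follistatin (-0.72 ± 0.17, adjusted p = 0.0204) was lost without the activin array of experiment 4 or the array with follistatin of experiment 2 or 4 (up to 0.0612), and without experiment 2 or 4 (up to 0.144). Against PBS it was called with the block only (-0.47 ± 0.17, adjusted p = 0.222 without the block and 0.0496 with it). Klf3, a repressor of the family, had -0.53 ± 0.17 between activin and activin plus follistatin and was likewise called with the block only (adjusted p = 0.0935 without and 0.02 with it). Klf4, a factor of epithelial differentiation, had 0.10 ± 0.08 between activin and PBS and was not called. The median of the 10 KLF genes was -0.15 for activin against PBS, 0.17 for activin plus follistatin against PBS and -0.30 for activin against activin plus follistatin. These comparisons share arrays, so their values are not independent.

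**Figure D2:**
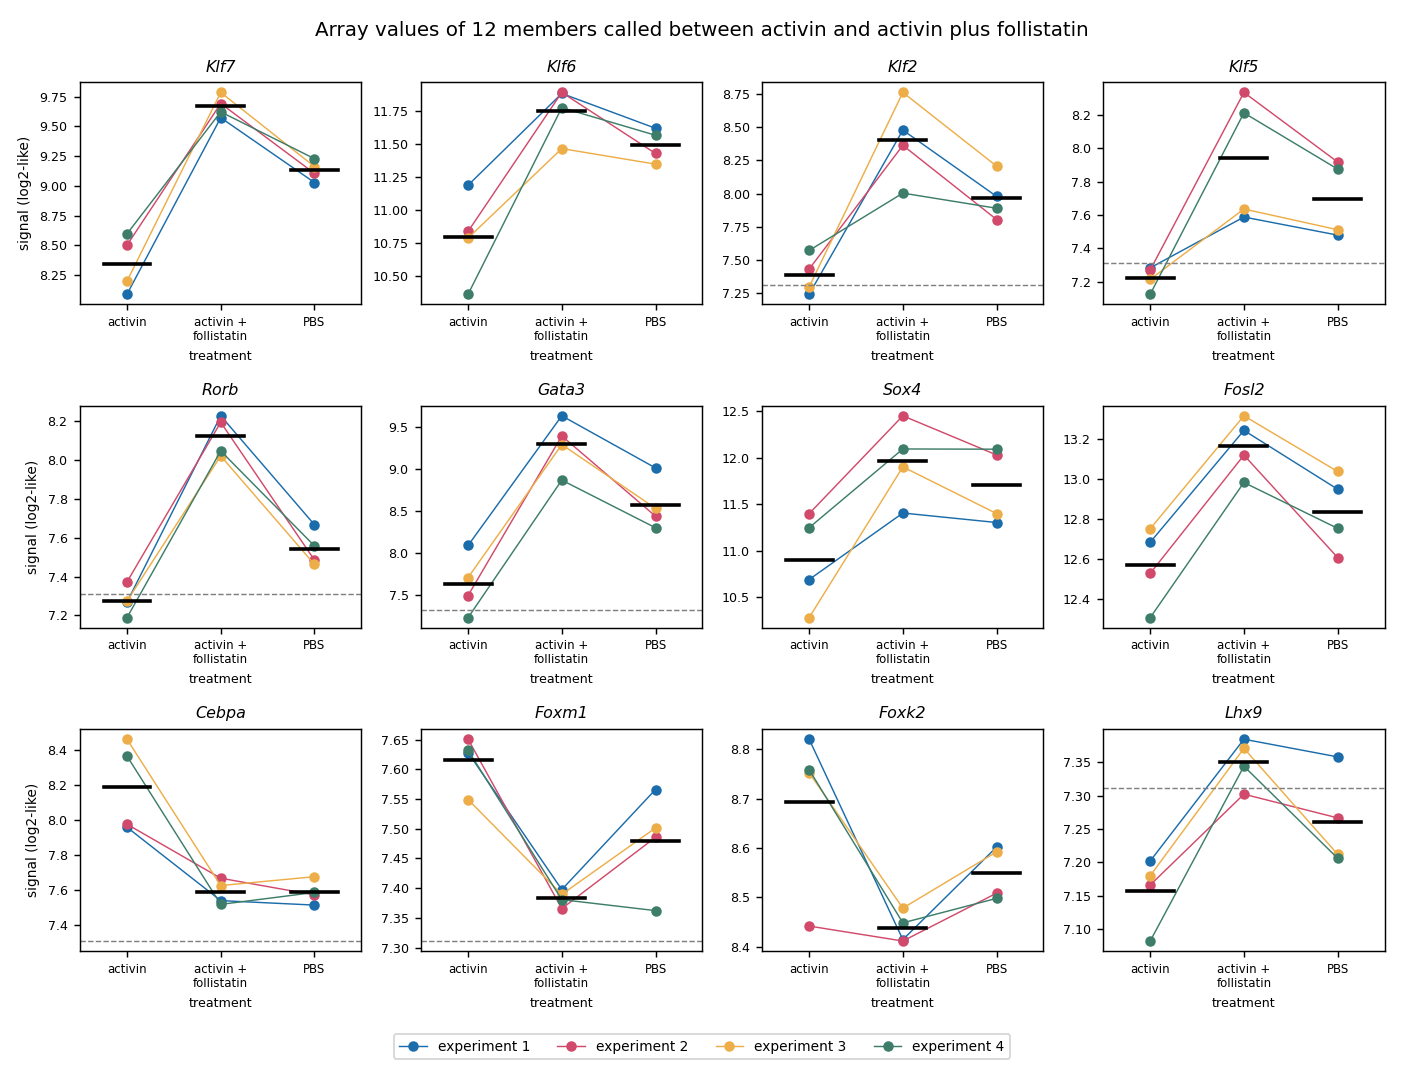
Signal (y axis, log2-like units, scale differs by panel) of 12 of the 13 members called between activin and activin plus follistatin, in activin, activin plus follistatin and PBS arrays along the x axis. Points are arrays, coloured lines join the arrays of 1 experiment, black bars are group means (n = 4), and the dashed line is the background level of 7.31 where it falls in the panel. Gata3 averaged 7.63 with activin, 9.29 with activin plus follistatin and 8.57 with PBS; Cebpa is highest with activin.

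Among the nuclear receptors, Rorb, a retinoid-related orphan receptor best known for its roles in the retina and the circadian clock, was lower with activin than with activin plus follistatin. Rorb read 7.27, 7.37, 7.27 and 7.19 with activin, 8.23, 8.20, 8.02 and 8.05 with activin plus follistatin, and 7.67, 7.49, 7.46 and 7.56 with PBS. The 3 groups did not overlap, with activin lowest, near background, and activin plus follistatin highest. Between activin and activin plus follistatin the difference was -0.85 ± 0.06 (adjusted p = 6.2e-06), a 1.80-fold lower signal. Against PBS, activin was lower by -0.27 ± 0.06 (adjusted p = 0.0353). That call was lost without the activin array of experiment 1, 3 or 4 or the PBS array of experiment 1 or 4 (up to 0.0942), and without any whole experiment (up to 0.189). Rorb was the only member called between activin plus follistatin and PBS, higher by 0.58 ± 0.06 or 1.50-fold (adjusted p = 0.00209), a call lost without experiment 2 (adjusted p = 0.0534).

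The related receptor Rora had 0.56 ± 0.25 between activin and PBS and was not called (adjusted p = 0.384). In experiments 1 to 4 that difference was 0.78, 0.20, 1.07 and 0.20.

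Of the 20 nuclear receptors, 5 had an unadjusted p under 0.05 between activin and PBS, beside 1352 of 8127 named genes. The estrogen receptor Esr1 averaged 7.31 with activin, 7.35 with activin plus follistatin and 7.32 with PBS, close to background, and its differences did not pass the test. The orphan receptors Nr4a1 and Nr2f2 were under background. The brightest receptor, Rxrb, which pairs with many other receptors, differed by 0.12 ± 0.07 between activin and PBS (adjusted p = 0.619). Of 13 measured coregulators that nuclear receptors recruit, 0 were called between activin and PBS by limma (2 at an unadjusted p under 0.05). Among all named genes 5.00% were called there. The corepressor deacetylase Hdac3 was lower with activin than with activin plus follistatin (-0.34 ± 0.06, adjusted p = 0.00563).

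Of the 2 GATA genes, Gata3 had the largest difference of any member, and Gata4 none that passed. Gata3, a factor of T cells, trophoblast and mammary epithelium, read 8.09, 7.49, 7.70 and 7.23 with activin. It read 9.63, 9.39, 9.29 and 8.86 with activin plus follistatin, and 9.01, 8.43, 8.53 and 8.30 with PBS. Every activin array was under every other array, and each experiment showed the same order of treatments. Gata3 was 3.17-fold lower with activin than with activin plus follistatin (-1.67 ± 0.21, adjusted p = 0.000388), with -1.54, -1.90, -1.58 and -1.64 in experiments 1 to 4. Against PBS it was 1.92-fold lower (-0.94 ± 0.21, adjusted p = 0.0345). Without the block that call was lost when any 1 of 8 arrays was left out: the activin array of experiment 2, 3 or 4, the array with follistatin of experiment 2 or 3, or the PBS array of experiment 1, 2 or 3 (adjusted p up to 0.0942). It was lost as well without experiment 2 or 3 (up to 0.205) and when only the 2 groups compared were fitted. With the block it had an adjusted p of 2.76e-05, and activin plus follistatin was called higher than PBS (0.73 ± 0.21, adjusted p = 0.344 without the block and 0.000747 with it). Gata4, which drives steroidogenic genes in granulosa cells, read 7.74, 7.40, 7.87 and 7.51 with activin, 7.77, 7.74, 7.85 and 8.03 with activin plus follistatin, and 7.52, 7.81, 7.70 and 7.59 with PBS. The groups overlapped, and activin differed from PBS by -0.03 ± 0.10.

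The only SOX gene called was Sox4, which is expressed in many progenitor cells and is a known target of transforming growth factor beta in other cell types. It read 10.69, 11.40, 10.28 and 11.25 with activin, 11.40, 12.45, 11.90 and 12.09 with activin plus follistatin, and 11.30, 12.03, 11.40 and 12.09 with PBS. The levels differed between experiments as well as treatments, and activin overlapped PBS across experiments while it was lower within each. The difference between activin and activin plus follistatin was -1.06 ± 0.29 (adjusted p = 0.0475), and with the block its adjusted p was 0.000276. Without the block the call was lost on leaving out the activin array of experiment 1 or 3, or the follistatin or PBS array of experiment 2, 3 or 4 (up to 0.14), or any whole experiment (up to 0.223). It was lost too after quantile normalization and with only the 2 groups fitted. Against PBS, -0.80 ± 0.29 was called with the block only (adjusted p = 0.234 without and 0.00337 with it). Sox5, the other bright member, at 10.2, had -0.24 ± 0.13 against PBS and was not called.

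Cebpa, which drives differentiation in fat, liver and myeloid cells, was the 1 member called higher with activin than with PBS without the block; with it Foxo1 and Gli2 were called higher too. It read 7.96, 7.98, 8.46 and 8.37 with activin, 7.54, 7.67, 7.63 and 7.52 with activin plus follistatin, and 7.52, 7.57, 7.68 and 7.59 with PBS. Activin arrays lay above all others, and the other groups overlapped. Cebpa was 1.52-fold higher with activin than with PBS (0.60 ± 0.10, adjusted p = 0.00772), and by the same 0.60 ± 0.10 higher than with activin plus follistatin (adjusted p = 0.00313). Activin plus follistatin differed from PBS by 0.00 ± 0.10. Without experiment 4 the call against PBS was lost (adjusted p = 0.0662). Its dimmer probe, with a mean of 7.08 under background, had -0.01 ± 0.03 between activin and PBS.

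Of 13 FOX genes, Foxm1 and Foxk2 were called between activin and activin plus follistatin, both higher with activin. That is 15.4% of the family, beside 11.9% of all named genes. None of the 13 was called against PBS without the block. Foxm1, which drives genes of mitosis, read 7.63, 7.65, 7.55 and 7.63 with activin, 7.40, 7.37, 7.39 and 7.38 with activin plus follistatin, and 7.57, 7.49, 7.50 and 7.36 with PBS. The activin arrays stood above all arrays with follistatin, all close to background. The difference of 0.23 ± 0.04 (adjusted p = 0.00313) was lost without experiment 2 (adjusted p = 0.0584). Its dimmer probe, with a mean of 7.02, had -0.01 ± 0.03 in the same comparison. For Foxk2, a regulator of metabolic and autophagy genes, the difference was 0.26 ± 0.07 (adjusted p = 0.0436). That call was lost without any 1 of 11 arrays, all but the activin array of experiment 2 (up to 0.123). It was lost as well without experiment 1, 3 or 4 (up to 0.26), and under 4 other settings. With the experiment as a fixed block it was made. A second Foxk2 probe, with a mean of 7.35 just above background, had 0.09 ± 0.05 in the same comparison and was not called (limma adjusted p = 0.479).

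Foxo1, which in granulosa cells restrains proliferation and steroid synthesis and is inactivated by follicle-stimulating hormone, varied with the experiment. It read 10.24, 10.91, 10.51 and 11.62 with activin, 9.16, 9.98, 9.43 and 10.37 with activin plus follistatin, and 9.31, 10.30, 9.81 and 10.82 with PBS. The groups overlapped across experiments, yet in each experiment the activin array was the highest and the array with follistatin the lowest. Activin exceeded PBS by 0.93, 0.61, 0.69 and 0.81 in experiments 1 to 4, a mean of 0.76 or 1.69-fold. Without the block its SE was 0.38 and it was not called (adjusted p = 0.469). With the block the SE was 0.06 and the adjusted p was 4.87e-05. The other comparisons of Foxo1 were also called with the block only: 1.08 between activin and activin plus follistatin (adjusted p = 0.138 without and 1.93e-06 with it), and -0.32 between activin plus follistatin and PBS (0.934 without and 0.028 with it). Foxp2, a factor studied in the brain, was lower with activin than with activin plus follistatin with the block only (-0.31, adjusted p = 0.644 without and 0.0305 with it).

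**Figure D3:**
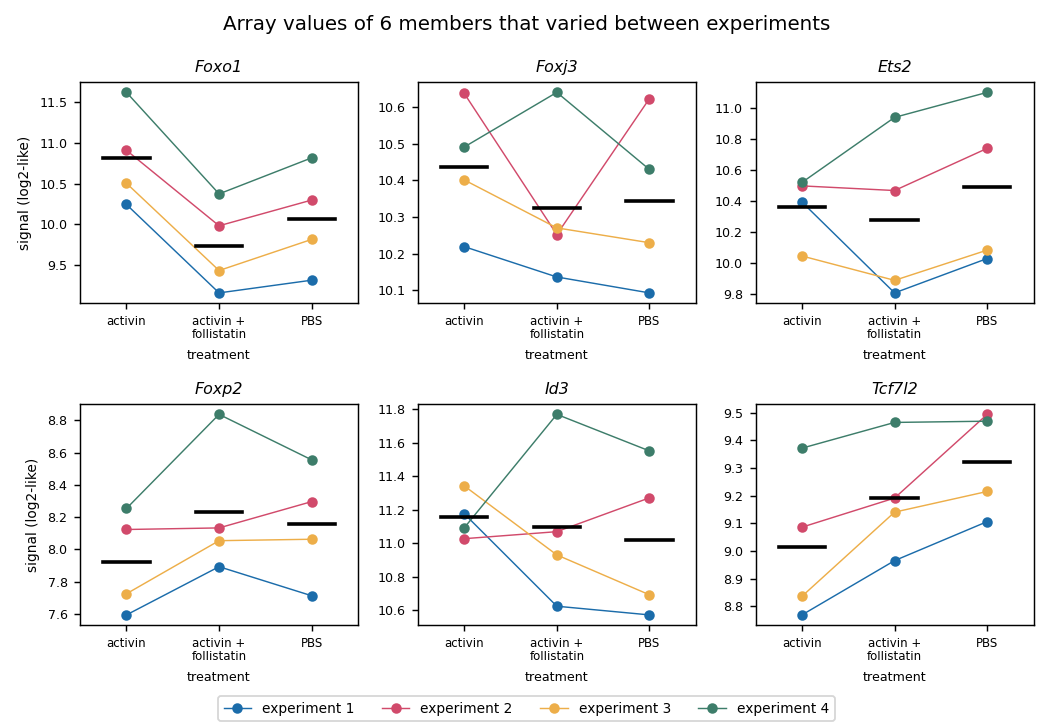
Signal (y axis, log2-like units, scale differs by panel) of 6 members whose level varied between experiments, in activin, activin plus follistatin and PBS arrays along the x axis. Points are arrays, coloured lines join the arrays of 1 experiment, and black bars are group means (n = 4). The Foxo1 lines run in parallel from activin down to activin plus follistatin in all 4 experiments, whereas the Id3 and Ets2 lines cross.

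Of 5 AP-1 and ATF genes, Fosl2, a Fos-related subunit of AP-1, was lower with activin than with activin plus follistatin. It read 12.68, 12.53, 12.75 and 12.30 with activin, 13.25, 13.12, 13.32 and 12.98 with activin plus follistatin, and 12.95, 12.61, 13.04 and 12.75 with PBS. Activin arrays lay under all arrays with follistatin and overlapped PBS. The difference from activin plus follistatin was -0.60 ± 0.12 (adjusted p = 0.00679), close to the same in the 4 experiments (-0.56, -0.59, -0.57 and -0.68). With the block Fosl2 was also called against PBS, lower with activin (-0.27 ± 0.12, adjusted p = 0.358 without and 0.0124 with it) and higher with activin plus follistatin (0.33 ± 0.12, 0.5 without and 0.0179 with it). Its dimmer probe, at 7.10, was not called. Atf2, a stress-activated factor that can pair with Jun proteins, was lower with activin than with PBS with the block only (-0.36 ± 0.09, adjusted p = 0.0596 without and 0.00592 with it), and likewise against activin plus follistatin (-0.27 ± 0.09, 0.111 without and 0.015 with it). Junb read 7.55 to 7.92 on all arrays and was not called. Of 6 measured AP-1 partners and other immediate early genes, 0 were called by limma in any comparison with or without the block. None of the 6 had an unadjusted p under 0.05. Of these genes 2 were above background, and 11.9% of named genes were called between activin and activin plus follistatin, so the 0 shows little.

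The STAT genes mediate cytokine, growth hormone and prolactin signals, and Stat3 was the brightest. It read 10.47, 10.38, 10.31 and 9.67 with activin, 11.13, 10.71, 10.86 and 10.56 with activin plus follistatin, and 10.65, 10.33, 10.47 and 10.25 with PBS. Every activin array was under every array with follistatin. The difference between them, -0.60 ± 0.17, missed the threshold (adjusted p = 0.0594), and with the block its adjusted p was 0.000943. A second bright probe of Stat3, with a mean of 10.2, also had -0.60 (adjusted p = 0.054). Of 13 measured JAK-STAT regulators, 2 (15.4%) were called higher with activin than with PBS and none lower, where 5.00% of named genes were called. They were the feedback inhibitors Socs2 (1.58 ± 0.23, adjusted p = 0.00338) and Socs1 (0.56 ± 0.11, adjusted p = 0.0226). Activin arrays exceeded those with added follistatin for both genes too, while the kinase Jak2 was lower there (-0.38 ± 0.07, adjusted p = 0.00383).

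Runx1, a partner of Smad proteins in blood cells and a factor induced in follicles at ovulation, read 7.78, 7.64, 7.48 and 7.49 with activin, 8.33, 7.99, 8.03 and 7.75 with activin plus follistatin, and 8.19, 7.91, 8.07 and 7.72 with PBS. It was lower with activin in each experiment, and across experiments the groups overlapped. Runx1 was called with the block only, at -0.37 ± 0.13 against PBS (adjusted p = 0.195 without and 0.00433 with it) and -0.43 ± 0.13 against activin plus follistatin (0.0711 without and 0.000943 with it). Runx2, a bone factor that ovulation also induces, was at background.

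Tcf7l2, which carries beta-catenin to DNA, was called with the block only, lower with activin than with PBS (-0.31 ± 0.14, adjusted p = 0.428 without and 0.00796 with it). Of 7 measured beta-catenin and TCF partners, 2 (28.6%) were called between activin and PBS, where 5.00% of named genes were. Tle1, a corepressor of TCF proteins, was higher with activin (0.80 ± 0.08, adjusted p = 0.000228), and so was Pygo2, a coactivator (0.51 ± 0.08, adjusted p = 0.00521). Both calls held against activin plus follistatin too, and Tle3, at background, was lower in that comparison (-0.13 ± 0.03, adjusted p = 0.0371), a call lost with the block (adjusted p = 0.0502). Gli2, which carries hedgehog signals to DNA, was near background at 7.47 and called with the block only, higher with activin than with PBS (0.20 ± 0.10, adjusted p = 0.441 without and 0.0443 with it). Of 8 measured hedgehog pathway genes, 1 (12.5%) was called, the ligand gene Dhh, which granulosa cells express. It was higher with activin than with PBS (0.59 ± 0.11, adjusted p = 0.0148) and than with activin plus follistatin (0.89 ± 0.11, adjusted p = 0.000393). In those comparisons 5.00% and 11.9% of named genes were called.

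Id3, a target of the related bone morphogenetic proteins, read 11.18, 11.03, 11.34 and 11.09 with activin, 10.62, 11.07, 10.93 and 11.77 with activin plus follistatin, and 10.57, 11.27, 10.69 and 11.55 with PBS. Activin exceeded PBS in experiments 1 and 3 and was below it in experiments 2 and 4, by 0.60, -0.24, 0.65 and -0.46, and the mean of 0.14 ± 0.25 was not called. Among HOX genes 0 of 16 were called in any comparison by limma with or without the block, with at most 2 at an unadjusted p under 0.05. Between activin and activin plus follistatin 11.9% of named genes were called, and 18.9% with the block. But 4 of the 16 HOX genes were above background, with means of 7.47 or less, so the count of 0 shows little about the family. Their differences between activin and PBS ran between -0.09 and 0.08. Lhx9, a LIM homeobox factor of the early gonad, was the 1 member called at background level, lower with activin than with activin plus follistatin (-0.19 ± 0.04, adjusted p = 0.00875). It read 7.20, 7.17, 7.18 and 7.08 with activin, 7.38, 7.30, 7.37 and 7.34 with activin plus follistatin, and 7.36, 7.27, 7.21 and 7.21 with PBS. The activin arrays were lowest. The call was lost without experiment 2, 3 or 4 (adjusted p up to 0.0655).

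**Figure D4:**
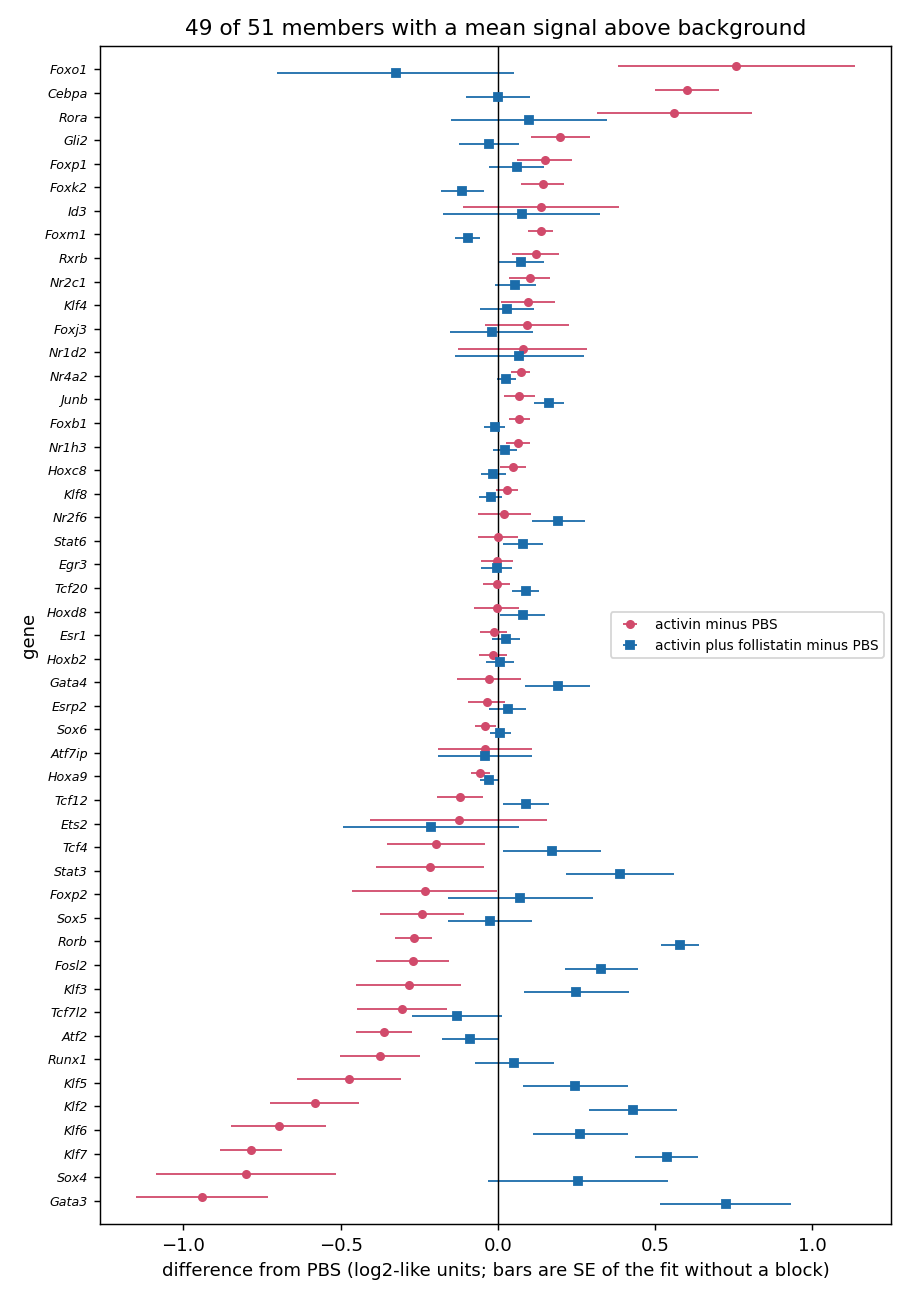
Difference from PBS (x axis, log2-like units) of 49 of the 51 members with a mean signal above background (y axis), for activin (red circles) and activin plus follistatin (blue squares). Bars are the SE of the fit without a block; both differences use the same 4 PBS arrays. Gata3 (-0.94 with activin, 0.73 with activin plus follistatin) is at the bottom and Foxo1 (0.76 and -0.32) at the top.

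Over the 51 members above background, experiment accounted for a median of 25.4% of a member's variance and treatment for 33.1%. A larger share between experiments than between treatments was found in 23 members. With 4 experiments and 3 treatments, noise alone gives experiment the larger share on average. The medians and the count of 23 therefore do not by themselves show an effect of experiment. Shares over all named genes were not computed, and the part of other cells in differences between experiments was not tested. Ets2, an effector of MAP kinase signals, had 77.8% of its variance between experiments: its mean over the treatments was 10.08, 10.57, 10.01 and 10.85 in experiments 1 to 4. It was not called in any comparison by either fit. Klf7 lay at the other end, with 2.85% of its variance between experiments and 94.1% between treatments.

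In the remaining pathway lists, the share of genes called between activin and activin plus follistatin stands beside 11.9% of all named genes, and 18.9% with the block. Among 10 measured genes of activin signalling, Fst, which encodes follistatin, was called in all 3 comparisons (2.52 ± 0.19 for activin against PBS), and it was the 1 gene of the list called without the block; with it 4 of the 10 were called between activin and activin plus follistatin. Of 11 Smad cofactors and corepressors, Zeb1, a zinc-finger repressor, was called higher between activin and activin plus follistatin (0.27 ± 0.05, adjusted p = 0.00687), 1 of the 11 without the block and 2 with it. Of 2 measured genes of retinoid ligand handling, Aldh1a1, a retinaldehyde dehydrogenase, was lower with activin than with activin plus follistatin (-2.35 ± 0.22, adjusted p = 6.08e-05), and so was Rdh10, a retinol dehydrogenase (-0.58 ± 0.13, adjusted p = 0.0159). Of 7 Hippo and TEAD partners, Ccn1, a matrix protein and known target of the pathway, was lower in that comparison (-0.98 ± 0.23, adjusted p = 0.0212), the 1 gene of the list called by either fit there. Among 7 other bHLH factors the Max partner Mxi1 was lower there (-0.55 ± 0.13, adjusted p = 0.0285), 1 of the 7 without the block and 3 with it.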

How the data were processed

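RNA of 12 granulosa cell cultures was amplified from about 100 ng and read on 1-colour Illumina Sentrix Mouse-6 arrays, per the labels and the series' design text. The deposited values look like log2 signals between 6.75 and 16.2, and the authors had normalized them between arrays: column medians run from 7.17 to 7.18. The submitters' processing notes name lumi 1.2.0 without its role. Whether the scale is plain log2 is not given in the sources used here, and detection calls were not used here. Of 46116 probes, 32 control spots were left out, and the highest mean of a control spot, 7.31, served as background. Arrays correlated at 0.967 to 0.994, and their number limits the precision.

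Probes were named where a zero-padded number in the identifier is a mouse Entrez gene number of assembly GRCm38.p6, a reading the files do not state: 81.1% of 10024 such numbers were found in the table, against 45.9% after adding 1. This named 9832 probes of 8127 genes; the others were tested without a name. Promoters came from RefSeq's table for that assembly, without coordinates of the array probes.

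Groups were taken from the labels. The 3 comparisons came from a single limma model of the treatment means over all 12 arrays (limma 3.58.1, R 4.3.3), 2-sided, with Benjamini-Hochberg adjustment over 46084 probes; the code was tested on simulated data. Arrays with the same number come from 1 experiment, per the series' design text. After group means were removed, arrays of the same experiment correlated at 0.331 to 0.801 and other pairs at -0.632 to 0.406. Removing group means itself pushes other pairs towards negative values when pairs of the same experiment are positive. The consensus correlation within experiments over all probes was 0.079. A fit with the experiment as a block is given where it changes a call. Labels call the cultures biological replicates.

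Named members are those called with or without the block, a fixed set of anchor genes, up to 4 members of smallest p in a described family and its highest and lowest members, except that 2 members are not reported by name here and enter the counts only; other pathway genes are at most 3 per list with the smallest p. The members and lists were chosen with earlier results of these data known.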

Additional observations from a re-analysis of the deposited data

Results flagged for a closer look

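Of 87 groups of 4 arrays, 3 for each of 29 named members, 1 had an array far from the others. Klf4, a factor of epithelial differentiation, read 7.29 with activin plus follistatin in experiment 2, and the nearest of the other arrays in that group read 7.49. The gap was 0.895 of the group's whole range, above Dixon's critical value for groups of 4. Chance flags about 1 in 20 groups. The 4 arrays of the group read at most 7.51, close to the background of 7.31, and Klf4 was not called in any comparison by either fit.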

How the results depend on the processing

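The block for the pairing of arrays by experiment moved the counts of called members most: 15 between activin and PBS, 6 between activin plus follistatin and PBS and 20 between activin and activin plus follistatin, against 5, 1 and 13 without it. As a random block, experiment gave 8 and 2 for the comparisons with PBS. With probes above background only these were 8 and 2, where the list adjusted over is shorter. A variance trend gave 8 for activin against PBS, and fitting only the 2 groups compared gave 2 for activin plus follistatin against PBS; the cause was not tested. Between activin and activin plus follistatin, the count was 9 to 16 under the alternatives other than the fixed block and the leaving out of arrays, with 9 for second probes. Leaving out 1 array gave 2 to 6 members for activin against PBS, 1 to 2 for activin plus follistatin against PBS and 11 to 13 for activin against activin plus follistatin. Leaving out 1 experiment gave 2 to 5, 0 to 1 and 9 to 11. For activin against activin plus follistatin, Klf7, Klf6, Klf2, Rorb and Gata3 kept their calls under every alternative run, and Cebpa and Fosl2 did so except on their dimmer probes. Klf7 kept its call against PBS as well. Among differences called without the block, 2 directions reversed on second probes. They were Cebpa for activin against PBS (-0.0128) and Foxm1 for activin against activin plus follistatin (-0.0103), both probes being under background. Some differences called with the block only changed sign too, also on probes under background. They were Foxp2 for activin against activin plus follistatin (0.0216), Tcf7l2 for activin against PBS (0.0464) and Fosl2 for activin plus follistatin against PBS (-0.0152). Members near 7.31 lie close to the lowest signals and can have compressed differences, which limits what the 55 members at or under background can show.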
